A study of Mus musculus with 9 samples.

Results

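The genes described here were lower in microglia at both 15 and 23 months than at 6 months. They were chosen from the deposited log2-scale expression values, so their lower level at the later ages is how they were found and was not tested. A gene was taken when its mean over the 9 libraries was at least 7 on the log2 scale and its young mean was at least 0.4 above both the middle-aged and the old mean. In addition, its lowest young library had to lie above its highest middle-aged and old library. Of 22036 genes in the table, 10611 reached the mean, 167 of these had the difference at 15 months, 66 had it at both ages and 43 also had no overlap. These 43 genes are 0.405% of the 10611. Without young replicate 2 the rule took 126 genes, 34 of them among the 43, and without middle-aged replicate 3 it took 83, 33 of them among the 43. The same rule turned round, for genes higher at both later ages, took 135.

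Expression was measured by RNA sequencing of microglia sorted by flow cytometry from the brains of wild-type female C57BL/6 mice, with no treatment or transgene named in the labels. Mice called young, middle-aged and old here were aged 6, 15 and 23 months, with 3 libraries per age. Each library held RNA pooled from 3 mice, so the spread between libraries, and every p-value below, is over pools and not over single animals. The library kit was made for ultra-low RNA amounts, and the sources used here do not give the gate of the sort.

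Microglia are the resident macrophages of the brain parenchyma, and they carry the fractalkine receptor Cx3cr1, through which neurons restrain them. A related population, the border macrophages of the meninges and perivascular spaces, is known for scavenger and lectin receptors such as Cd163, Mrc1, Stab1 and Clec10a, which take up haemoglobin complexes, glycoproteins and modified lipoproteins. Raptor, encoded by Rptor, is the subunit that recruits substrates to mTORC1, the kinase complex that couples nutrients to growth, and Nprl3 belongs to GATOR1, the complex that restrains mTORC1 when amino acids are scarce.

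The microglial marker Tmem119 was abundant in every library and averaged 15.35, 15.42 and 15.45 log2 units in young, middle-aged and old libraries. The summed linear level of 13 microglial identity genes lay between 94.9% and 109% of the young mean in young libraries, 85.3% and 95.8% in middle-aged ones and 90.2% and 96.6% in old ones. Summed monocyte markers stood at 89.9% to 114% of the young mean in young, 116% to 183% in middle-aged and 142% to 171% in old libraries, and neutrophil markers at 74.3% to 128%, 112% to 242% and 61.6% to 125%. Summed dendritic cell markers stood at 96.5% to 105%, 83.3% to 92.9% and 70.4% to 80.2%. Siglech, which is also among the 13 microglial identity genes, made up most of the dendritic cell sum. Siglech averaged 16.14, 15.98 and 15.77 log2 units in young, middle-aged and old libraries, and the next highest, Cd209a, 13.76, 13.44 and 13.07. Of the 13 dendritic cell markers tested, 8 and 5 were below their young level in middle-aged and old libraries. The median differences of these markers from young were -0.01 and 0.03. Immediate-early genes summed to 85.7% to 112%, 115% to 144% and 92.3% to 103%. The part of these marker groups in the values of the 43 genes was not tested. The sources used here give no read totals, and the depth behind each value is unknown. Old replicate 3 stood apart on the first principal component, which held 34.7% of the variance, at 29.9 against -14.4 to 5.9 in the other 8 libraries.

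The 43 genes included 6 scavenger and lectin receptors or their adaptor, 10 other surface proteins, 2 components of mTORC1 signalling, 8 signalling and cytoskeletal proteins and 4 enzymes of DNA or RNA. A further 5 encode transporters or metabolic and membrane enzymes, 2 are immunoglobulin genes and 6 are little described. Middle-aged minus young differences ran from -0.73 to -0.41 on the log2 scale, with a median of -0.47, or 72.4% of the young level. Old minus young differences ran from -0.99 to -0.40, with a median of -0.55, or 68.3% of the young level. Over all 14955 genes that passed the filter on low values, the medians were -0.001 at 15 months and -0.009 at 23 months. All 43 genes passed that filter. In libraries of many cells, fewer cells of a type and less RNA per cell cannot be told apart.

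**Figure D1:**
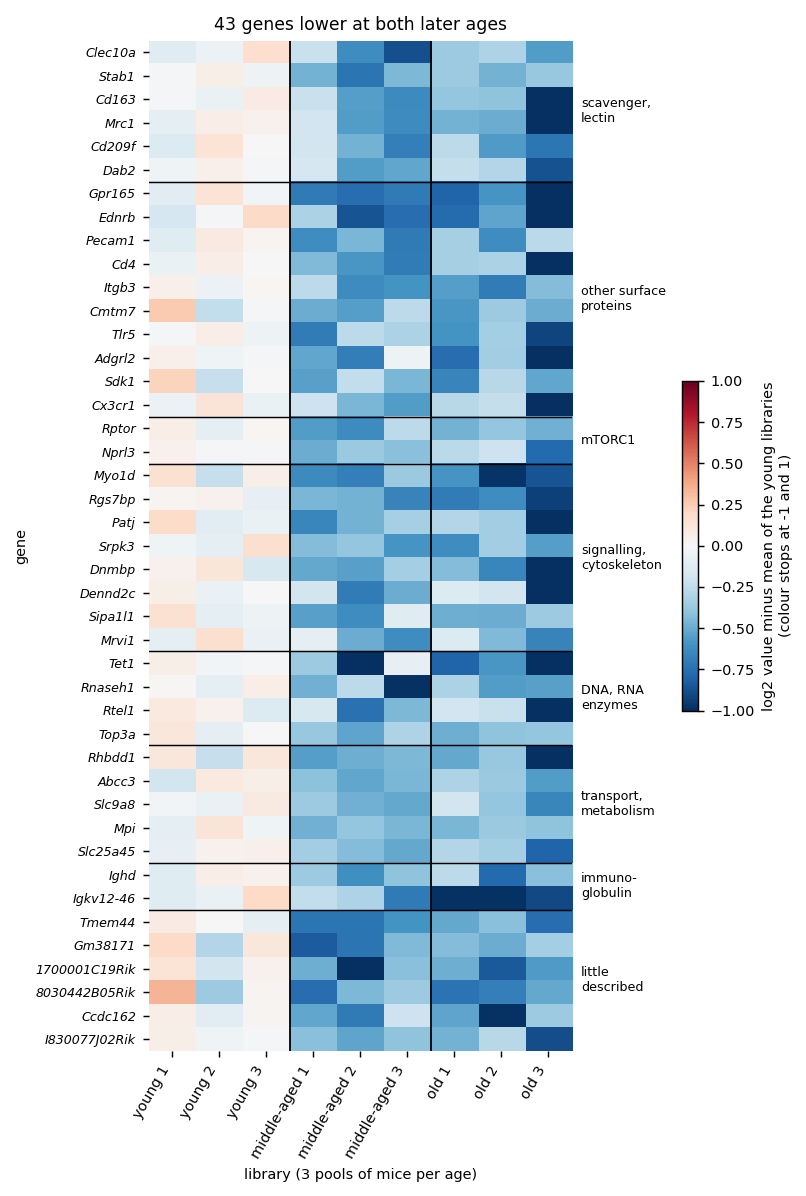
Log2 value minus the mean of the 3 young libraries for each of the 43 genes (rows, grouped by role) in each of the 9 libraries (columns); blue is below and red above the young mean, and the colour stops at -1 and 1. All middle-aged and old columns are blue by construction, and the last column, old replicate 3, is the lowest library for 24 of the 43 genes.

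The mean over the 43 genes, relative to the young mean of each, was -0.44, -0.57 and -0.49 in the middle-aged libraries and -0.46, -0.48 and -0.82 in old replicates 1, 2 and 3. Old replicate 3 was the lowest of the 9 libraries for 24 genes, whereas each of the other later libraries was the lowest for 3 to 5. Without it, the median old minus young difference of the same genes was -0.46. The spread between libraries was larger at the later ages: the median SD of the 43 genes was 0.10 in young, 0.18 in middle-aged and 0.24 in old libraries, beside 0.09, 0.13 and 0.16 for all genes with a mean of at least 7.

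**Figure D2:**
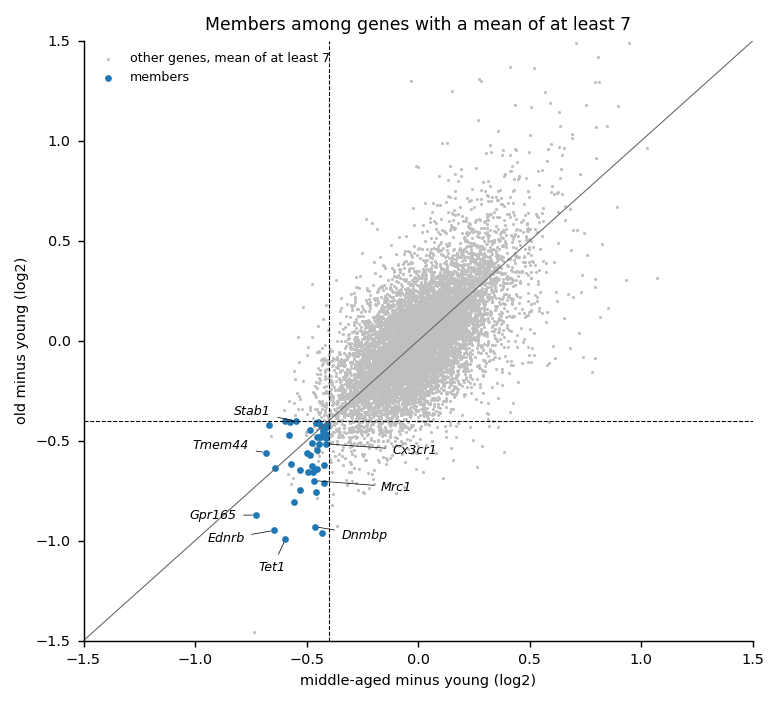
Middle-aged minus young (horizontal axis, log2) against old minus young (vertical axis, log2) for the 43 members in blue and for the other genes with a mean of at least 7 in grey; dashed lines mark -0.4, the solid line marks equal differences, and 18 genes lie outside the axes. The blue points fill the lower left corner by the rule, down to -0.99 for Tet1 at 23 months, and grey points in the same corner are genes whose libraries overlapped between ages.

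For 4 genes that stand for the surface proteins of the set, the orphan G-protein-coupled receptor Gpr165, the scavenger receptor Stab1, the mannose receptor Mrc1 and Cx3cr1, the promoter is shown as RefSeq's window of 300 bases around a transcript start, on GRCm38.p6 and on the strand of the gene. For Cx3cr1 that start lies inside the GENCODE gene, which spans 119901616 to 120069879 on chromosome 9, and the window does not reach the outer end of the gene; the other 3 windows include the start of theirs. Capitals mark the CCAAT box, the sequence recognised by NF-Y, read on either strand as CCAAT or ATTGG.
Gpr165, chrX:96713218-96713517, plus strand: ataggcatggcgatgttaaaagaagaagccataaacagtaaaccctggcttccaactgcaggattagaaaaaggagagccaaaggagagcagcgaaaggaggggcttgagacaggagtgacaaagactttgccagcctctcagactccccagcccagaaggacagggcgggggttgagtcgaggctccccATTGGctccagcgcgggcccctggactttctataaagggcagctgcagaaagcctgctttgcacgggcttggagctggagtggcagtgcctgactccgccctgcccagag
Stab1, chr14:31168592-31168891, minus strand: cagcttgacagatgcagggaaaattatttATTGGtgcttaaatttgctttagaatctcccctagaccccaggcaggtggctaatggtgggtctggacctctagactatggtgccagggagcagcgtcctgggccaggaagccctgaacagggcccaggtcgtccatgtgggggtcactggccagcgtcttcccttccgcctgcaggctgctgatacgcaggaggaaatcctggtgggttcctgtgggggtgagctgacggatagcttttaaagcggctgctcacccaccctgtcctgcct
Mrc1, chr2:14229164-14229463, plus strand: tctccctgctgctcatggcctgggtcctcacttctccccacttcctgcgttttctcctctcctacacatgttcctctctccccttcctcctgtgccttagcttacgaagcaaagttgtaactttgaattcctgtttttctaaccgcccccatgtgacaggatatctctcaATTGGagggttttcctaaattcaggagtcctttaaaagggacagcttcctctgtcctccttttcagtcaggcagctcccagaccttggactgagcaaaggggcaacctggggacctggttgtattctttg
Cx3cr1, chr9:120068247-120068546, minus strand: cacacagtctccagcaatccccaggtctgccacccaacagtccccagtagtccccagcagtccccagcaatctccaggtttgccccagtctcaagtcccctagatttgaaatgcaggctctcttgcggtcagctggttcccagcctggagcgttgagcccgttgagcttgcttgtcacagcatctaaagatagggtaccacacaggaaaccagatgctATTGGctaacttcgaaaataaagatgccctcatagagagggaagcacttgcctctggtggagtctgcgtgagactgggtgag
All 4 windows held the box in the ATTGG orientation, but the set as a whole did not hold it more often than other genes. It was in 10 of the 31 members with a listed promoter, 32.3%, against 39.3% of 8111 other genes with a mean of at least 7 and 37.9% of all 27025 promoters. The E-box CACGTG was in 0 of the 31, against 10.6% of the other expressed genes, and the GC box GGGCGG in 14, 45.2%, against 64.6%. The AP-1 sequence TGANTCA was in 4, 12.9%, against 4.75%, the TATA box TATAAA in 6, 19.4%, against 7.0%, the ETS sequence AGGAAGT in 3, 9.68%, against 10.1%, and the SMAD sequence CAGACA in 4, 12.9%, against 15.3%. Every motif was searched on both strands, no motif contains another, and a match is a description of the letters and not a binding site.

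Among the scavenger and lectin receptors, Stab1, which encodes stabilin-1, a receptor for modified lipoproteins and matrix fragments, had the tightest groups. It read 15.48, 15.55 and 15.44 log2 units in young libraries, 15.02, 14.76 and 15.04 in middle-aged ones and 15.13, 15.02 and 15.11 in old ones. The later libraries thus lay close together, and all of them were below the lowest young library by at least 0.31. The old minus young difference was -0.40 ± 0.09 (SE, n = 3 libraries per age), the smallest in the set, and the middle-aged minus young difference -0.55 ± 0.09. Stab1 lies on chromosome 14 at 31139013 to 31168641 of GRCm38.

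Mrc1, the mannose receptor that clears glycoproteins, read 14.52, 14.69 and 14.66 in young, 14.43, 14.06 and 13.99 in middle-aged and 14.15, 14.12 and 13.51 in old libraries. Cd163, the receptor for haemoglobin bound to haptoglobin, read 12.84, 12.78 and 12.93 in young, 12.63, 12.30 and 12.21 in middle-aged and 12.46, 12.45 and 11.66 in old libraries. In both genes middle-aged replicate 1 lay nearest to the young libraries and old replicate 3 farthest from them. Dab2, a clathrin adaptor for receptors of this kind, had the same order, with a young mean of 14.80 ± 0.05 (SD, n = 3) and values of 14.63, 14.24 and 14.28 in middle-aged and 14.56, 14.51 and 13.93 in old libraries. The galactose-binding lectin gene Clec10a averaged 11.07 ± 0.15, 10.49 ± 0.33 and 10.66 ± 0.13 in young, middle-aged and old libraries, and the C-type lectin gene Cd209f had its lowest young library at 12.86 and read 12.82, 12.53 and 12.32 in middle-aged and 12.74, 12.43 and 12.28 in old libraries. Averaged over the 6 genes of this group and relative to the young mean, middle-aged replicates 1, 2 and 3 stood at -0.24, -0.58 and -0.63. Over the 37 other members the same libraries stood at -0.47, -0.57 and -0.46.

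These receptors belong to a larger list of border macrophage markers, of which 15 were tested and 5 (Mrc1, Cd163, Stab1, Dab2 and Clec10a) are members. At 15 months 13 of the 15 were below their young level and their median difference was -0.31; for the 10 that are not members, 8 were below it and the median was -0.24. At 23 months the medians were -0.43 over the 15 and -0.40 over the 10, with 12 and 7 below their young level. A wider list of border macrophage and scavenger genes, with 31 tested, held 6 members, Cd209f among them. Its 25 other genes had medians of -0.16 at 15 months and -0.13 at 23 months. Of these 25, 20 were below their young level at 15 months and 16 at 23 months. In old against young libraries 2 of the 15 were called lower (limma, Benjamini-Hochberg adjusted p under 0.05 over all genes tested), Stab1, which the rule had chosen on that contrast, and the lectin gene Mgl2, which is no member (log2 -0.62 ± 0.12 SE, adjusted p = 0.0327). Across all genes 0.301% were called lower in that comparison. Mgl2 lost its call without any of young replicates 1 to 3, middle-aged replicate 2, or old replicate 2 or 3, with no filter and with the 2 ages alone. The summed linear level of the 5 members was 97.2% to 103% of the young mean in young, 64.6% to 81.2% in middle-aged and 61.6% to 78.0% in old libraries. The 10 other markers summed to 97.0% to 102% in young, 96.8% to 110% in middle-aged and 86.0% to 95.6% in old libraries, and none of the 15 was below the filter. The transcription factor gene Maf and F13a1 weighed most in that sum, at young means of 14.89 and 14.83 log2 units. Their middle-aged minus young differences went opposite ways, at 0.49 and -0.31. Among these 10, Lyve1, F13a1, Pf4, Cbr2 and Cd38 had old minus young differences of -0.46, -0.46, -0.51, -0.37 and -0.43, and Folr2 one of -0.07. Ms4a7, Siglec1 and Maf were above their young level at 23 months, by 0.25, 0.08 and 0.2. The part of these cells in the lower receptor values was not tested.

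**Figure D3:**
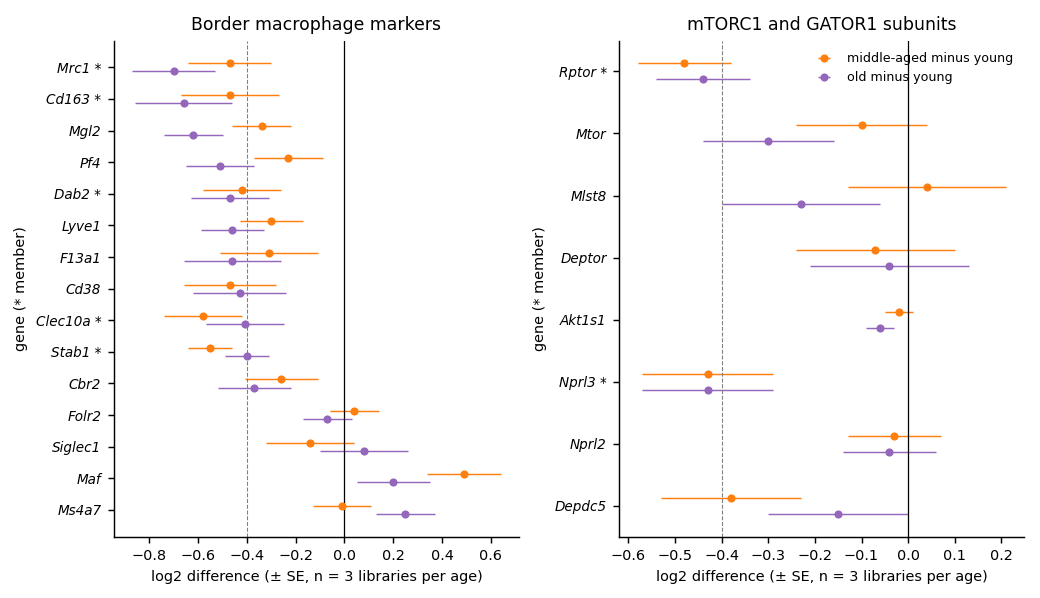
Middle-aged minus young (orange) and old minus young (purple) log2 differences with standard errors, n = 3 libraries per age, for 15 border macrophage markers (left) and 8 subunits of mTORC1 or GATOR1 (right); an asterisk marks a member of the set and the dashed line its threshold of -0.4. Most border macrophage markers lie left of 0, with Maf at 0.49 farthest to the right; Rptor and Nprl3 lie left of the dashed line by the rule, and the 6 other subunits right of it.

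Gpr165 had the largest difference at 15 months of the 43 genes. It read 12.67, 12.92 and 12.75 log2 units in young, 12.07, 12.02 and 12.07 in middle-aged and 11.98, 12.19 and 11.55 in old libraries. The lowest young library was 0.48 above the highest later one, the widest gap in the set. Its level was 60.5% of the young level at 15 months and 54.6% at 23 months. Gpr165 lies on the X chromosome at 96713441 to 96719388.

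Cx3cr1 was the most abundant of the 43 genes also per kilobase of exon, at 16.51 log2 units per kilobase in young libraries, where the mitochondrial carrier gene Slc25a45 came next at 13.44. It read 18.62, 18.81 and 18.61 in young, 18.47, 18.22 and 18.12 in middle-aged and 18.40, 18.44 and 17.66 in old libraries. The closest libraries of young and later mice were 0.14 apart, and its means were 75.1% of the young level at 15 months and 69.9% at 23 months. Of 45 homeostatic microglial genes listed, 40 had deposited values and were tested, and P2ry12, P2ry13 and Gpr34 were not among them. Cx3cr1 was the only member of the 40. That list had median differences of -0.14 at 15 months and -0.22 at 23 months, and 5 of the 40 were called lower and 0 higher in old against young libraries (limma, adjusted p under 0.05), where 0.301% of all genes were called lower and 1.7% higher. The 5 were Fcrls, Siglech, Slc2a5, Adgrg1 and Ltc4s, with differences of -0.39, -0.37, -0.50, -0.51 and -0.50. Only 2 of these calls, Adgrg1 and Ltc4s, were made without old replicate 3, and 0 without young replicate 2 or young replicate 3. The list had 1 call without young replicate 1, middle-aged replicate 2 or old replicate 1, 2 without old replicate 2, 3 without middle-aged replicate 1 and 4 without middle-aged replicate 3. It had 1 with the 2 ages alone, 2 with no filter, 3 with the replicate block or a pseudocount of 10, 8 with quantile normalization and 13 with library weights. These counts are of genes called lower. Genes of the list were called higher only with library weights, 2 (Ctsd and Lag3), and with length and GC trends removed, 1 (Ctsd). Adgrg1, an adhesion receptor gene of microglia, was the gene nearest outside the threshold at 15 months, at -0.3993, where Mrvi1 was the nearest inside it at -0.4066. An antisense gene, Gm33858, shares 78 exon bases, 1.73% of the exon sequence of Cx3cr1, and had differences of -0.58 and -0.30; whether counting used strand is not stated, so reads from the shared bases cannot be assigned to either gene.

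The endothelin receptor gene Ednrb read 10.40, 10.55 and 10.76 in young, 10.25, 9.71 and 9.81 in middle-aged and 9.80, 10.04 and 9.01 in old libraries. Its old mean was 51.8% of the young level, and old replicate 3 was the lowest library. Itgb3, which encodes the beta subunit of the vitronectin receptor, had its lowest young library at 11.89 and read 11.69, 11.32 and 11.35 in middle-aged and 11.40, 11.25 and 11.52 in old libraries, where old replicate 3 was the highest of the old ones. The flagellin receptor gene Tlr5 had differences of -0.42 and -0.62 from young libraries at 15 and 23 months, the latrophilin gene Adgrl2 of -0.42 and -0.71, the adhesion gene Sdk1 of -0.41 and -0.49 and the MARVEL-domain gene Cmtm7 of -0.44 and -0.48. In Adgrl2, middle-aged replicate 3, at 10.77, was within 0.01 of the lowest young library, at 10.78.

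Pecam1, an adhesion receptor of endothelium and leukocytes, read 11.43, 11.64 and 11.58 in young, 10.93, 11.09 and 10.84 in middle-aged and 11.22, 10.93 and 11.28 in old libraries. Its old minus young difference, -0.40, was smaller than its middle-aged minus young difference, -0.60. Of the 14 endothelial markers tested, Pecam1 among them, 3 were below their young level at 15 months and the median difference was 0.07; the tight junction gene Cldn5 was near the filter, at 4.84, 4.89 and 4.92. Cd4, a receptor for MHC class II known from T cells and also found on macrophages, read 8.79, 8.93 and 8.86 in young, 8.42, 8.28 and 8.16 in middle-aged and 8.53, 8.54 and 7.66 in old libraries. The T-cell receptor gene Cd3e stood at 5.48, 5.46 and 5.65. The summed level of 21 T and NK cell markers, Cd4 among them, was 91.2% to 108% of the young mean in middle-aged and 104% to 130% in old libraries.

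Rptor read 14.24, 14.08 and 14.19 log2 units in young, 13.61, 13.54 and 13.91 in middle-aged and 13.70, 13.78 and 13.69 in old libraries. Nprl3 read 11.09, 11.04 and 11.03 in young, 10.55, 10.68 and 10.63 in middle-aged and 10.78, 10.84 and 10.27 in old libraries. The middle-aged and old means of each gene were within 0.04 of each other. The other subunits of their complexes had smaller differences from young libraries. For mTORC1 these were -0.10 and -0.30 at 15 and 23 months for the kinase gene Mtor, 0.04 and -0.23 for Mlst8, -0.07 and -0.04 for Deptor and -0.02 and -0.06 for Akt1s1. For GATOR1 they were -0.03 and -0.04 for Nprl2 and -0.38 and -0.15 for Depdc5. Akt1s1 was near the filter, at 4.89, 4.86 and 4.83 log2 units in young, middle-aged and old libraries. No difference between Rptor or Nprl3 and these partners was tested. Of 97 genes of phosphoinositide, PI3K, AKT and mTOR signalling tested, 0 were called at 15 months against young, where 0.0% of all genes were called lower and 0.114% higher by limma. In old against young libraries 1 of the 97 was called lower and 3 higher, beside 0.301% and 1.7% of all genes. Called lower was Inpp5d (log2 -0.37 ± 0.08 SE, adjusted p = 0.048, limma), with -0.33 at 15 months. Those called higher were Prr5l (log2 0.82, adjusted p = 0.0128), Synj2 (log2 0.53, adjusted p = 0.0311) and Eif4ebp1, a translational repressor that mTORC1 phosphorylates (log2 0.54 ± 0.12 SE, adjusted p = 0.0498, limma). The list medians were -0.04 at 15 months and -0.05 at 23 months. With a library left out, Inpp5d kept its call only without middle-aged replicate 3. Synj2 kept its call only without middle-aged replicate 1 or 3 or old replicate 2. Eif4ebp1 was called without middle-aged replicate 3 or old replicate 2 and lost its call without any of the other 7 libraries, and also with robust variance, no filter, either pseudocount, median centring, the replicate block, length and GC trends removed and the 2 ages alone. Prr5l kept its call in all these settings other than without young replicate 1, 2 or 3. With library weights 12 of the 97 were called lower and 3 higher, where 621 and 988 of all 14955 genes were. Those called lower included Mtor, and also Rptor and Nprl3, which the rule had chosen on that contrast. Exons of Nprl3 share 1340 bases, 17.7% of its exon sequence, with Mpg on the opposite strand, the only shared share above 10% among the 43 genes.

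Of the signalling and cytoskeletal genes, Rgs7bp, which anchors regulators of G-protein signalling at the membrane, read 8.15, 8.16 and 8.04 in young, 7.66, 7.65 and 7.45 in middle-aged and 7.42, 7.5 and 7.19 in old libraries. Myo1d, a class I myosin, read 12.80, 12.42 and 12.71 in young, 12.01, 11.97 and 12.28 in middle-aged and 12.06, 11.67 and 11.79 in old libraries. All 6 later libraries lay at least 0.38 below the lowest young one in Rgs7bp and at least 0.14 below it in Myo1d, and the old minus middle-aged differences were -0.22 and -0.25. The SR-protein kinase gene Srpk3 averaged 11.93 ± 0.13, 11.46 ± 0.11 and 11.42 ± 0.14 in young, middle-aged and old libraries. Sipa1l1, a GTPase-activating protein for Rap, averaged 12.92 ± 0.13, 12.49 ± 0.27 and 12.47 ± 0.08, and Mrvi1, a substrate of cGMP-dependent kinase and the least abundant member, 7.75 ± 0.13, 7.34 ± 0.28 and 7.33 ± 0.27.

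In other genes of this group old replicate 3 was well below the other old libraries. Dennd2c, of the DENN family of Rab activators, read 11.94, 11.81 and 11.88 in young, 11.70, 11.18 and 11.38 in middle-aged and 11.74, 11.70 and 9.92 in old libraries. Its old SD of 1.04 was the largest of the set, and old replicate 1 was 0.08 below the lowest young library. Dnmbp, an activator of Cdc42, read 11.07, 11.15 and 10.87 in young, 10.52, 10.49 and 10.69 in middle-aged and 10.60, 10.38 and 9.31 in old libraries. The polarity scaffold gene Patj had a young mean of 8.73 and read 8.08, 8.26 and 8.40 in middle-aged and 8.44, 8.38 and 7.66 in old libraries. In the authors' deposited table, the old minus young log2 fold changes of these genes were -0.17 for Dennd2c, -0.57 for Dnmbp and -0.29 for Patj, none with an adjusted p under 0.05.

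Tet1, which oxidises methylated cytosine in DNA, had the largest difference at 23 months and uneven later libraries. It read 9.43, 9.34 and 9.35 in young, 9.01, 8.04 and 9.29 in middle-aged and 8.57, 8.79 and 7.78 in old libraries. Middle-aged replicate 3 was within 0.05 of the lowest young library, and middle-aged replicate 2 and old replicate 3 were more than 1 unit below it. In the authors' deposited table its log2 fold changes were -0.23 at 15 months and -0.11 at 23 months. The telomere helicase gene Rtel1 read 9.63, 9.57 and 9.39 in young, 9.37, 8.78 and 9.08 in middle-aged and 9.34, 9.31 and 8.0 in old libraries, and the authors' deposited table gave -0.46 and -0.09. Top3a, a topoisomerase that resolves DNA crossovers, was far more even, at 12.47, 12.27 and 12.36 in young, 11.98, 11.83 and 12.05 in middle-aged and 11.87, 11.96 and 11.97 in old libraries. Rnaseh1, which removes RNA from RNA-DNA hybrids, read 10.99, 10.89 and 11.05 in young, 10.50, 10.72 and 9.99 in middle-aged and 10.66, 10.42 and 10.44 in old libraries.

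The transport and metabolic genes had narrow differences, -0.49 to -0.43 at 15 months and -0.66 to -0.41 at 23 months. Mpi, the isomerase that links fructose and mannose phosphates, read 12.57, 12.79 and 12.62 in young, 12.18, 12.27 and 12.20 in middle-aged and 12.20, 12.29 and 12.26 in old libraries. The 6 later libraries of Mpi thus lay between 12.18 and 12.29. Abcc3, an exporter of organic anion conjugates, averaged 15.11 ± 0.15, 14.65 ± 0.06 and 14.70 ± 0.13. Slc25a45 averaged 14.90 ± 0.07, 14.47 ± 0.08 and 14.43 ± 0.28, the sodium-proton exchanger gene Slc9a8 12.61 ± 0.09, 12.16 ± 0.08 and 12.20 ± 0.24, and the rhomboid protease gene Rhbdd1 12.46 ± 0.20, 11.96 ± 0.05 and 11.80 ± 0.38. The larger old SD of the last 3 came with a lowest library that was old replicate 3 in each.

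Ighd, the constant region of immunoglobulin D, which mature B cells carry, read 10.55, 10.74 and 10.71 in young, 10.31, 10.06 and 10.27 in middle-aged and 10.41, 9.89 and 10.25 in old libraries. Of the other B-cell markers, Ighm averaged 16.25, 16.07 and 16.16 and Cd79b 11.78, 11.65 and 11.56, and the sum of 10 such markers was 85.6% to 94.2% of the young mean in middle-aged and 91.9% to 110% in old libraries. Their part in the value of Ighd was not tested. Igkv12-46, a variable segment of the kappa light chain, is described with the comparison of the later ages.

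Of the little-described genes, Tmem44, a transmembrane protein gene, read 10.24, 10.16 and 10.07 in young, 9.43, 9.43 and 9.56 in middle-aged and 9.65, 9.74 and 9.40 in old libraries, a gap of 0.33 between the ages. The noncoding RNA genes Gm38171 and 8030442B05Rik lie on the same strand of chromosome 2, 18.5 kb apart. Gm38171 read 8.47, 7.99 and 8.39 in young, 7.45, 7.55 and 7.84 in middle-aged and 7.85, 7.78 and 7.94 in old libraries, and 8030442B05Rik 12.69, 11.99 and 12.38 in young, 11.59, 11.90 and 11.99 in middle-aged and 11.61, 11.67 and 11.84 in old libraries. Both were lowest of the young libraries in young replicate 2, and 8030442B05Rik was the gene nearest inside the rule on overlap, by 0.0037, where Ralgps1 was the nearest outside it, at -0.0353. 1700001C19Rik had differences of -0.64 at both ages, Ccdc162 of -0.48 and -0.62 and I830077J02Rik of -0.46 and -0.55.

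The rule set no condition on the difference between old and middle-aged libraries, but it chose both low against the same young libraries. A gene back at its young level at 23 months could not be a member. The comparison of these ages therefore cannot show whether the lower level was kept, only how far apart the later levels lay. By limma with adjusted p under 0.05, 0 of the 43 genes were called between 23 and 15 months, against 0.0134% of all 14955 genes called lower and 0.16% called higher. At shares this small, 0 calls among 43 genes do not set the members apart from other genes. At an unadjusted p under 0.05 there was 1 member, where 1522 of all genes tested, 10.2%, were, and the authors' deposited table also called 0 of the 43, where it called 0.466% of genes lower and 0.859% higher. The differences ran from -0.53 to 0.24 with a median of -0.06, or 95.7% of the middle-aged level, and 31 of the 43 were below 0, beside 51.5% of all genes tested. Leaving out old replicate 3 brought the median to 0.034, and leaving out old replicate 1 to -0.139. With cuts at -0.2 and 0.2, 9 genes were lower again at 23 months, 33 were between the cuts and 1, Gm38171, was above.

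**Figure D4:**
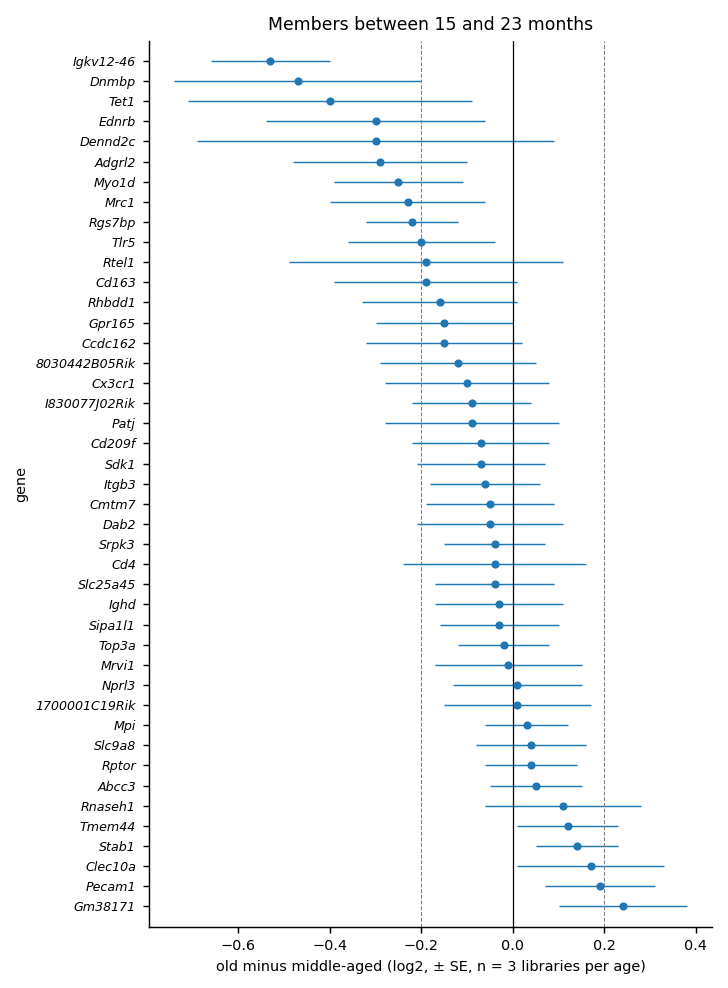
Old minus middle-aged log2 difference of each member with its standard error, n = 3 libraries per age, ordered from the lowest at the top; dashed lines mark -0.2 and 0.2. Most members lie near 0, from Igkv12-46 at -0.53 to Gm38171 at 0.24, and the widest bars belong to genes such as Dennd2c, Tet1 and Rtel1 that were low in old replicate 3.

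Igkv12-46 had the largest difference of these. It read 7.92, 7.97 and 8.24 log2 units in young libraries, 7.79, 7.73 and 7.33 in middle-aged ones and 7.05, 7.05 and 7.14 in old ones. It was the only member whose old libraries all lay below its middle-aged ones, which held for 6.41% of all genes tested. The difference was -0.53 ± 0.13 (SE), with an unadjusted p of 0.0021 and an adjusted p of 0.209 (limma, Benjamini-Hochberg), and the authors' deposited table gave -0.15. Reads of such a variable segment can be shared with near-identical segments, so its value is uncertain.

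After Igkv12-46, the lowest differences were those of Dnmbp, -0.47 ± 0.27, and Tet1, -0.40 ± 0.31 (SE), in which old replicate 3 was well below the other old libraries. The highest were those of Gm38171, 0.24 ± 0.14, Pecam1, 0.19 ± 0.12, and Clec10a, 0.17 ± 0.16. None passed the limma test, with adjusted p from 0.589 to 0.749 for these 5 genes. Standard errors ran from 0.09 to 0.39 over the 43 genes, and differences of -0.47 and -0.53, in Dnmbp and Igkv12-46, did not pass the test. A count of 0 here does not show that the later ages were alike. By role, the median old minus middle-aged difference was -0.15 for the signalling and cytoskeletal genes, -0.09 for the other surface proteins, -0.06 for the scavenger and lectin receptors and 0.03 for the transport and metabolic genes.

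In the contrasts that chose them, 0 of the 43 genes were called lower at 15 months by limma, where 0.0% of all genes were, with the smallest adjusted p at 0.0604 for Stab1. Without old replicate 3 the count at 15 months was 5, with the filter at 50 it was 2, with the 2 ages alone 1 and with library weights 21. At 23 months 10 were, where 0.301% of all genes were. The 10 were Gpr165, Itgb3, Mpi, Myo1d, Rgs7bp, Srpk3, Stab1, Tmem44, Top3a and Igkv12-46, and the count lay between 2 and 11 when a library was left out, with 2 without young replicate 1 or 3, 4 without young replicate 2, 5 without middle-aged replicate 1 or 2, 4 without old replicate 1 and 3 without old replicate 3. The authors' deposited tables called 33 of the 43 lower at 15 months, where they called 2.53% of genes lower, and 29 at 23 months, where they called 2.9%, with 23 called at both ages. In those tables all 43 had negative log2 fold changes against young at both ages, with medians of -0.54 and -0.58. The weakest there at 23 months were Cd4 at -0.07, Rtel1 at -0.09, Tet1 at -0.11, Igkv12-46 at -0.13 and Dennd2c at -0.17. Nothing is read from these counts, since the rule used the same libraries.

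Among features that the rule did not use, the 43 genes had a median gene length of 42.1 kb, against 24.9 kb in the other 10554 annotated genes with a mean of at least 7. Their median longest transcript was 4440 bases long, against 3360, and had 12 exons, against 8. Median GC content of the exons was 50.5%, against 48.9%, and 90.7% were protein coding, against 93.2%. Chromosome 11 held 8 of them (Rptor, Nprl3, Clec10a, Abcc3, Itgb3, Myo1d, Pecam1 and Top3a), 18.6%, against 8.33% of the other genes. These values are descriptions without a test.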

How the data were processed

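Per the labels' protocols, each library came from sorted microglia of 3 mice, pooled before RNA extraction, and was prepared with an ultra-low-input kit. Tools named in the submitters' processing notes are CASAVA, DESeq2 1.16.1, STAR 2.5.3 and cutadapt 1.13, and the build is mm10; no source used here states the read counter or the annotation. The table of libraries, as deposited, holds log2 values from -2.14 to 20.05 for 22036 genes, by a transformation of the authors that no source used here states. The authors' tables for each pair of ages hold, per the file headers, a mean signal, a log2 fold change with its standard error, a test score, a p-value and its adjusted form; fold changes run later minus earlier age.

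The log2 values were used as deposited. Genes that reached 3.32, log2 of 10, in at least 3 libraries were tested, 14955 in all. All 9 libraries entered a single limma fit (version 3.58.1, R 4.3.3) with age as the group and a trend in the variance. Two-sided p-values were adjusted by Benjamini-Hochberg over all genes tested and called under 0.05. The fit had 6 residual and 4.57 prior degrees of freedom, and the fit and the rule were tested on simulated data. With 3 libraries per age, an exact permutation test of single genes could not reach 0.05.

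The members, gene lists and roles were chosen with earlier results of these data known. Named genes were those with the largest differences at either later age or between them, the most abundant, those nearest the thresholds and members of the lists; the remaining members were added as values. GENCODE M21, on the GRCm38 build that mm10 names, gave coordinates, lengths and exons for 43 of 43 members. RefSeq promoters on GRCm38.p6 were matched by symbol for 31 of the 43. Levels per kilobase divide the linear value by the summed exon length. Alternatives covered the variance setting, library weights, filters, pseudocounts, scaling, length and GC trends, a replicate block, fits of 2 ages and leaving out each library. The rule turned round and the marker sums without members were added after the data had been seen. Matplotlib 3.10.9 drew the figures.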

Additional observations from a re-analysis of the deposited data

How the results depend on the processing

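The rule took 126 genes without young replicate 2, 83 without middle-aged replicate 3 and between 36 and 126 when any library was left out, with 29 to 41 of the 43 among them. It took 146 genes with differences of at least 0.3, 9 with at least 0.5 and 66 with overlap allowed. Across the other settings it took 33 to 45, the lowest with length and GC trends removed, where 27 were shared. Over all alternatives 1805 of 1806 values of single members moved by less than the spread between libraries and 0 reversed. The exception was Stab1 at 23 months, -0.34 with length and GC trends removed. The rule had put every young library of a member above every later one, so leaving out a library could not reverse a difference from young. Settings of the variance or the filter leave the group means unchanged. These counts are therefore not read as support for the differences.

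Counts of called genes moved far more. Middle-aged against young gave 17 calls, and 312 with library weights, 10 with no filter, 29 with the filter at 50, 11 with the replicate block, 26 with length and GC trends removed and 4 to 49 with a library left out. Old against young gave 299, and 1609 with library weights, 170 with no filter, 185 with the replicate block, 153 with the 2 ages alone and 84 to 322 with a library left out. Old against middle-aged gave 26, and 3 without a variance trend, 62 with library weights, 9 with no filter, 47 with the filter at 50, 14 with the replicate block, 0 with the 2 ages alone (limma; 1008 at an unadjusted p under 0.05, and 199 in the authors' deposited table from DESeq2) and 3 to 23 with a library left out. In none of these settings was a member called between the later ages; the members' median there lay between -0.139 and 0.034.

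Replicate numbers did not pair the libraries: deviations of same-numbered libraries correlated at -0.242 to 0.234 over genes, and the block brought the members called lower at 23 months to 5, against 10 without it. With library weights 21 members were called lower at 15 months and 34 at 23 months. Read depth and the transformation of the log2 values are unknown, and 3 pools per age limit every test.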
